A study of Mus musculus with 6 samples.

Results

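The 36 genes described here encode the transcription factors TFEB and TFE3 and 34 proteins of the lysosome, namely acid hydrolases, their activators and integral membrane proteins, with the cathepsins and the V-ATPase left out. They were chosen by gene symbol from a list and not by a limit on their values, but earlier results of these data were known. All 36 were found among the 23504 genes of the table. The RNA was sequenced from bone marrow–derived macrophages (BMMs) of C57BL/6 mice, which the methods describe as males 6 to 8 weeks old, grown with M-CSF, the growth factor of macrophages. In 3 libraries the cells had received DASA-58, an activator of the pyruvate kinase PKM2, and in 3 libraries its solvent DMSO, and the RNA was taken after 3 days of this treatment. By the study's results both groups received RANKL, the cytokine that turns BMMs into osteoclasts, whereas its methods name RANKL only for the treated group and write DASA-48 where the labels have DASA-58. The comparison of DASA-58 with DMSO asks how PKM2 activation bears on the transcripts of cells on their way to osteoclasts. The labels do not say whether the 3 libraries of a group came from separate cultures, so each p measures only the spread between these libraries.

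Lysosomes are acidic organelles in which soluble hydrolases take apart glycans, lipids, glycosaminoglycans and proteins that reach them by endocytosis, phagocytosis and autophagy. TFEB and TFE3 are basic helix-loop-helix factors of the MiT family that bind E-boxes of the CLEAR type (letters CACGTG) in the promoters of many lysosomal genes and are held in the cytoplasm when mTORC1 on the lysosome is active. Macrophages are rich in lysosomes for degradation inside the cell, and osteoclasts send lysosomal enzymes and membranes to the border that faces bone.

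The promoters of the genes are shown first, because the E-box is the sequence through which TFEB and TFE3 are known to act. Promoters in the RefSeq annotation of GRCm38.p6 (250 bases before to 50 after a start) were matched by symbol for 34 of the 36 genes, with 39 promoters in all, and the 2 without an entry were Asah1 and Galns. The 7 letters TCACGTG, an E-box with the flanking T of the CLEAR type, were searched on both strands. They were found in 9 of the 34 genes (26.5%), against 4.29% of 27025 genes with a promoter of this length, and in 9 of the 39 promoters (23.1%) against 3.77% of 32851 promoters. The shorter CACGTG, which every TCACGTG contains, was found in the same 9 genes and in 8.09% of all genes, and the palindrome TCACGTGA in Gla and Mcoln1 and in 1.12% of all genes. The promoter of Lamp1 held 4 matches, shown in capitals, that began 62, 45, 28 and 16 bases before the start.
Lamp1, chr8:13158911-13159210, plus strand: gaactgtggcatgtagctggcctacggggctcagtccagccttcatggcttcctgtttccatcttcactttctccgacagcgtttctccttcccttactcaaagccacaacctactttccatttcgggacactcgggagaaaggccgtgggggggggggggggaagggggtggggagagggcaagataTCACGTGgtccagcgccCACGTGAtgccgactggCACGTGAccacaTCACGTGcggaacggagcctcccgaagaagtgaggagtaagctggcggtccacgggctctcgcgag
The 3 other genes with a match that were higher with DASA-58 were Gla, Naglu and Lgmn, whose matches are given in capitals with 20 bases on each side, on the strand of the gene. The match of Lgmn lay in the second of its 2 promoters, and the first held none. The bases shortly after the start of the second promoter were not found in the GENCODE transcripts of Lgmn.
Gla, chrX:134601206-134601253, minus strand: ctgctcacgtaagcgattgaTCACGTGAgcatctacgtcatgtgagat
Gla, chrX:134601173-134601220, minus strand: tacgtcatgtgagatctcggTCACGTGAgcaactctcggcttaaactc
Naglu, chr11:101070000-101070046, plus strand: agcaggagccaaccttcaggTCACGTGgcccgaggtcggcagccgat
Lgmn, chr12:102439116-102439162, minus strand: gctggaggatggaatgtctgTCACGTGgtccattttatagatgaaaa
The 5 genes with a match that did not pass the test were Mcoln1, Glb1, Gaa, Sgsh and Arsa.
Mcoln1, chr8:3500427-3500473, plus strand: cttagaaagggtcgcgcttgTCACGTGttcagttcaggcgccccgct
Mcoln1, chr8:3500453-3500500, plus strand: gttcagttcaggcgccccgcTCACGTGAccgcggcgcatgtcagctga
Glb1, chr9:114401009-114401055, plus strand: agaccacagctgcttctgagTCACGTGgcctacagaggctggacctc
Gaa, chr11:119267802-119267848, plus strand: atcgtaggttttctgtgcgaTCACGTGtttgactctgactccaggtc
Sgsh, chr11:119355513-119355559, minus strand: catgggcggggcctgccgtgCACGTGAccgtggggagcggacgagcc
Arsa, chr15:89477415-89477461, minus strand: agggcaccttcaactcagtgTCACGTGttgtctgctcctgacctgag
A match is a description of the letters, and its absence from the other 25 genes says only that these letters were not in this window. The median GC content was 57.0% over the 39 promoters and 52.7% over all promoters.

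**Figure D1:**
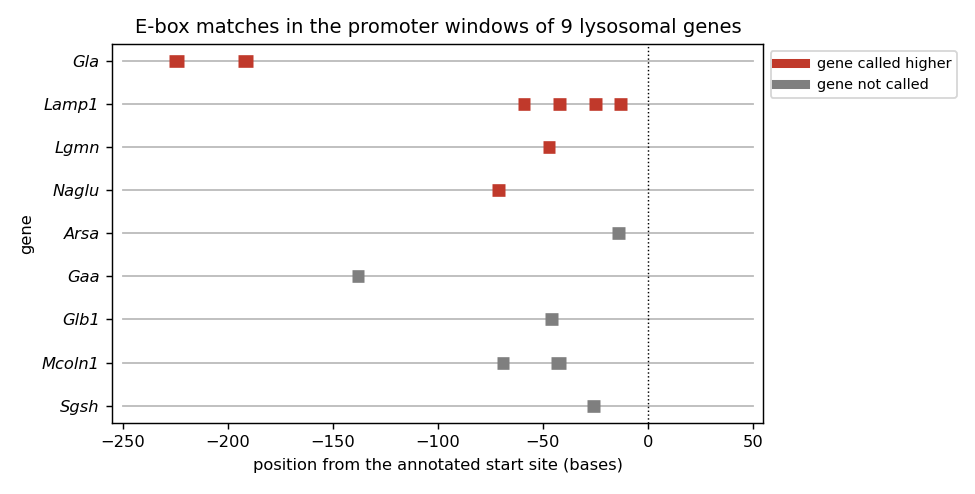
Position of each match to TCACGTG (boxes) in the RefSeq promoters of the 9 lysosomal genes that hold one, in bases from the annotated start at 0 (dotted line), from 250 bases before to 50 bases after it. Red marks the 4 genes that were higher with DASA-58 and grey the 5 genes that did not pass the test, and the matches of both kinds lie upstream of the start, with 4 of them close together in Lamp1. The match of Lgmn is drawn from the start of its second promoter.

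With DASA-58, 13 lysosomal transcripts were higher by small amounts, the most abundant ones among them, 2 enzymes were lower, and the transcripts of TFEB and TFE3 themselves did not pass the test. With a gene called at an adjusted p under 0.05 (limma on log2(FPKM + 1), adjusted by Benjamini-Hochberg for the 10965 genes whose mean reached 1 FPKM), 13 of the 36 genes were higher (36.1%), 2 were lower (5.56%) and 21 were not called. Among all genes tested, 4.24% were called higher and 7.28% lower. The higher genes were Lamp1, Lamp2, Laptm4a, Gla, Hexa, Man2b1, Naglu, Asah1, Lipa, Ppt1, Psap, Lgmn and Tpp1, and the lower genes were Arsb and Smpd1. The changes were modest, from a log2 fold change of −0.43 (Arsb) to 0.32 (Lipa), with a median of 0.10 against −0.03 over all genes tested. The change was above 0 for 29 of the 36 genes (80.6%) and for 40.2% of all genes tested. In 20 genes (55.6%) every DASA-58 library lay above every DMSO library and in 3 (8.33%) every one lay below, where 11.8% and 21.6% of all genes tested did so.

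FPKM scales the fragments of a gene by its length and by the depth of the library, so that levels can be compared between genes. A fold change of FPKM + 1 understates that of a gene with a low level. For 1 gene alone, permuting 3 and 3 libraries exactly gives no p below 0.10. In bulk RNA, fewer cells of a type and less RNA per cell cannot be told apart. The share of lower calls among all calls was 63.2%, and it was 49.5% after quantile normalization, 71.3% with equal library totals, 45.8% with median centring and 46.0% with a trimmed mean of log ratios. With these scalings 12, 9, 14 and 14 of the 36 genes were called higher.

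**Figure D2:**
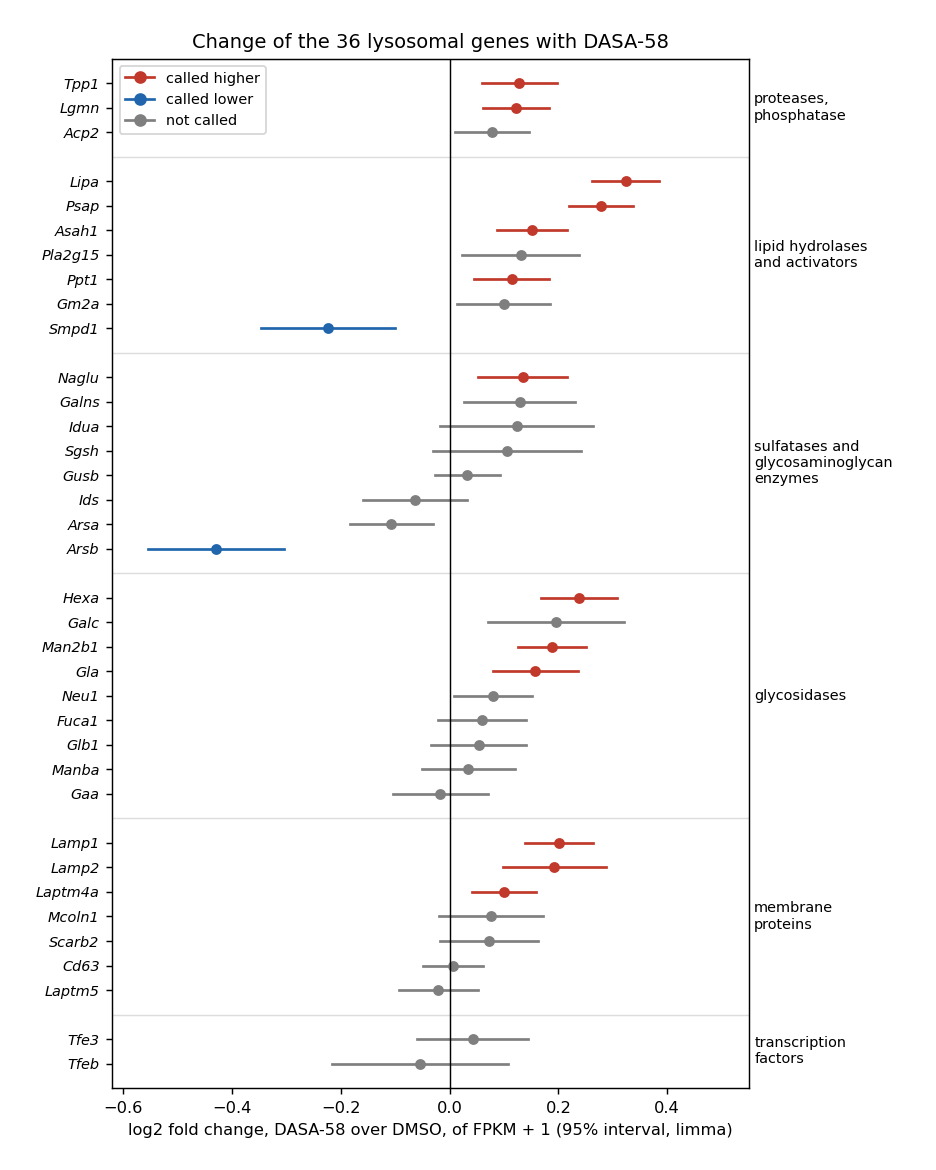
Log2 fold change of FPKM + 1, DASA-58 over DMSO, for the 36 lysosomal genes (points) with its 95% interval from limma (bars), grouped by role. Red marks the 13 genes called higher, blue Arsb and Smpd1, called lower, and grey the 21 genes not called, whose points mostly lie to the right of 0.

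Tfeb (chr17:47737030-47792419, GRCm38) was among the genes with the lowest levels of the group. Its level was 9.59, 10.1 and 8.39 FPKM in the DMSO libraries and 8.49, 8.90 and 9.52 FPKM in the DASA-58 libraries. The groups overlapped, and the log2 fold change of −0.05 had a 95% interval from −0.22 to 0.11 (limma adjusted p = 0.67). Tfe3, its relative on the X chromosome, had means of 20.2 ± 0.744 FPKM without and 20.9 ± 0.924 FPKM with DASA-58 (SD, n = 3). Its interval ran from −0.06 to 0.14 (limma adjusted p = 0.59). For neither factor does a p above the threshold show that the level was the same, and both intervals include a change of 0.10, the size seen for Laptm4a below. The transcript level says nothing of where in the cell the proteins were.

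Of the 7 genes for lysosomal membrane proteins, Lamp1, Lamp2 and Laptm4a were called higher and the other 4 were not called. Lamp1 (chr8:13159161-13175338), one of the pair of heavily glycosylated proteins that line the inner face of the lysosomal membrane, was at 456, 441 and 435 FPKM with DMSO and at 519, 503 and 510.2 FPKM with DASA-58. Every DASA-58 library was above every DMSO library, and the log2 fold change was 0.20 with an SE of 0.027 (limma adjusted p = 0.0037). This call was lost only after quantile normalization (limma adjusted p = 0.072). Lamp2, the other protein of the pair and the receptor of chaperone-mediated autophagy, was at 52.6, 50.8 and 56.4 FPKM with DMSO and at 60.4, 60.5 and 62.0 FPKM with DASA-58. It rose by a log2 fold change of 0.19 with an SE of 0.041 (limma adjusted p = 0.023). Laptm4a, a membrane protein with several spans, went from 196 ± 3.88 to 210.3 ± 2.31 FPKM, a log2 fold change of 0.10 (limma adjusted p = 0.045). The calls of Lamp2 and Laptm4a were kept without DMSO replicate 3 and lost without any 1 of the other 5 libraries (limma adjusted p from 0.051 to 0.082 for Lamp2 and from 0.078 to 0.14 for Laptm4a). Both were also lost with no filter on low values, no trend in the variance and no variance shrinkage, and Laptm4a after quantile normalization, with equal library totals and with the replicate block (limma adjusted p up to 0.11 for Lamp2 and 0.14 for Laptm4a over all alternatives).

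The membrane genes that were not called lay closer to 0. Cd63, a tetraspanin of late endosomes and lysosomes, had means of 142 ± 1.92 FPKM in the DMSO group and 143 ± 1.06 FPKM in the DASA-58 group, and its interval from −0.05 to 0.06 was the narrowest of the group. Laptm5, the relative of Laptm4a in blood cells, was at 275 ± 9.31 and 271 ± 5.15 FPKM. The changes of both were so near 0 that they changed sign under other settings, Cd63 with equal library totals or without DMSO replicate 3 and Laptm5 after quantile normalization, median centring or a trimmed mean of log ratios. Scarb2, which carries glucocerebrosidase to the lysosome, had a log2 fold change of 0.07 (interval −0.02 to 0.16), and Mcoln1, the calcium channel TRPML1, had one of 0.08 (interval −0.02 to 0.17). The libraries of Mcoln1 did not overlap, at 9.41 to 9.52 FPKM in the DMSO group and 9.54 to 10.3 FPKM in the DASA-58 group.

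Of the 9 glycosidases of glycans, glycogen and glycolipids, Hexa, Man2b1 and Gla were called higher and the other 6 were not called. Hexa (chr9:59539540-59565109), the alpha subunit of beta-hexosaminidase, which takes the terminal sugar from the ganglioside GM2, was at 240.1, 234 and 227 FPKM with DMSO and at 269, 278 and 280.3 FPKM with DASA-58. Its log2 fold change of 0.24 with an SE of 0.030 (limma adjusted p = 0.0029) stayed past the threshold under all 18 alternatives. Man2b1, lysosomal alpha-mannosidase, was at 89.3, 87.5 and 86.5 FPKM with DMSO and at 102, 98.2 and 100.4 FPKM with DASA-58. Its log2 fold change of 0.19 with an SE of 0.027 (limma adjusted p = 0.0051) also held under all 18 alternatives. For both genes the DASA-58 libraries stood wholly above the DMSO libraries.

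Gla (chrX:134588149-134601125), alpha-galactosidase A, which cleaves globotriaosylceramide, was at 50.3, 49.9 and 53.1 FPKM with DMSO and at 56.1, 58.3 and 56.9 FPKM with DASA-58. The groups did not overlap and the log2 fold change was 0.16 with an SE of 0.034 (limma adjusted p = 0.024), a call that was kept without DMSO replicate 3 and lost without any 1 of the other 5 libraries (limma adjusted p from 0.052 to 0.083), and also with no filter, no trend and no variance shrinkage. Galc, which removes galactose from galactosylceramide, had a log2 fold change as large as that of Lamp1, 0.20 with an interval from 0.07 to 0.32, but a level near 5 FPKM. It was at 5.13, 4.55 and 4.92 FPKM with DMSO and at 5.96, 5.54 and 5.65 FPKM with DASA-58, and its limma adjusted p of 0.056 passed the threshold under 5 of the 18 alternatives. Neu1, the lysosomal sialidase, rested at a log2 fold change of 0.08 without overlap between the groups (limma adjusted p = 0.14). Fuca1, Glb1 and Manba, which remove fucose, beta-galactose and beta-mannose, had changes of 0.06, 0.05 and 0.03, and Gaa, the glycogen-degrading alpha-glucosidase, had one of −0.02 that turned positive with 3 of the 4 other scalings and without DASA-58 replicate 2.

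Of the 8 sulfatases and glycosidases of glycosaminoglycans and sulfated lipids, Naglu was called higher, Arsb was called lower and 6 were not called. Over all genes tested, 4.24% were called higher and 7.28% lower. Arsb (chr13:93771630-93943016), arylsulfatase B, which takes the sulfate from N-acetylgalactosamine in dermatan and chondroitin sulfate, had the lowest level of the 36 genes. It was at 4.42, 4.44 and 4.59 FPKM with DMSO and at 3.18, 3.18 and 2.86 FPKM with DASA-58, or 68.5% of the DMSO mean, on 490 to 505 and 328 to 361 recovered fragments. The groups lay far apart, with a log2 fold change of −0.43 and an SE of 0.054 (limma adjusted p = 0.0028). The call held under the 17 alternatives in which the gene was tested, and with a minimum of 5 FPKM it was not tested. A node labelled Arsb was read by eye in the study's network of lower genes. Here its change fell short of the log fold change limit that the study gives for such genes. The network was drawn from these same samples, so the study's choice of the gene is no separate evidence of its direction. Part of its exons overlaps the opposite-strand genes Gm47210, listed at a mean of 0.0147 FPKM, and Gm26527, which has no row, and whether strand was used in counting is not given in the sources used here.

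Naglu (chr11:101070012-101077672), which removes N-acetylglucosamine from heparan sulfate, was at 48.2, 48.0 and 44.8 FPKM with DMSO and at 51.5, 52.3 and 51.2 FPKM with DASA-58. The log2 fold change was 0.13 with an SE of 0.035 (limma adjusted p = 0.048), and the call was lost without any 1 of the 6 libraries (limma adjusted p from 0.062 to 0.13), and also with no filter, no trend, no variance shrinkage, equal library totals and the replicate block. Arsa, arylsulfatase A, which desulfates sulfatide, was at 14.6, 14.8 and 15.1 FPKM with DMSO and at 13.8, 13.8 and 13.5 FPKM with DASA-58. Its libraries did not overlap, and its log2 fold change of −0.11 missed the threshold (limma adjusted p = 0.077) except without variance shrinkage (0.046). Arsb and Arsa were thus below DMSO in every library, 1 past the threshold and 1 not. Arsg and Arsk, arylsulfatases among the other lysosomal genes below, had log2 fold changes of 0.18 and 0.096, and neither was called.

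The other enzymes of heparan, dermatan and keratan sulfate were not called. Galns, the N-acetylgalactosamine-6-sulfatase, had a log2 fold change of 0.13 without overlap between the groups (limma adjusted p = 0.10). Idua, which removes iduronate, and Sgsh, the heparan N-sulfatase, had changes of 0.12 and 0.11 with overlapping libraries. Ids, the iduronate-2-sulfatase, was at 19.2 ± 0.872 and 18.3 ± 0.459 FPKM (interval −0.16 to 0.03), and Gusb, beta-glucuronidase, was at 148 ± 2.48 and 152 ± 2.52 FPKM (interval −0.03 to 0.09). Gaa and Sgsh, 57971 bases apart on chromosome 11, were both not called.

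The 7 lipid hydrolases and lipid-binding activators showed the largest upward changes of the group, with Lipa, Psap, Asah1 and Ppt1 called higher, Smpd1 called lower, and Pla2g15 and Gm2a not called. Lipa (chr19:34492318-34527474), lysosomal acid lipase, which frees cholesterol and fatty acids from esters brought in by lipoproteins, was at 513, 507 and 534 FPKM with DMSO and at 646, 653 and 645 FPKM with DASA-58. The lowest DASA-58 library was above the highest DMSO library by far more than the spread within either group, and the log2 fold change was 0.32 with an SE of 0.026 (limma adjusted p = 4.7e-04), 125% of the DMSO mean. This call held under all 18 alternatives. Psap (chr10:60277627-60302597), the precursor of the saposins that hand sphingolipids to their hydrolases, was the most abundant transcript of the group, at 2149, 2092 and 2073 FPKM with DMSO and at 2601, 2519 and 2536 FPKM with DASA-58. Its log2 fold change was 0.28 with an SE of 0.025 (limma adjusted p = 7.5e-04), and the call was lost only with no filter on low values (0.053).

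The hydrolases on either side of ceramide were called in opposite directions. Asah1, acid ceramidase, which cleaves ceramide, was at 109, 108 and 114 FPKM with DMSO and at 123, 123 and 121 FPKM with DASA-58. Its log2 fold change was 0.15 with an SE of 0.028 (limma adjusted p = 0.013), and the call was lost without DMSO replicate 1, DASA-58 replicate 1 or DASA-58 replicate 2 (limma adjusted p from 0.051 to 0.053), and also with no trend (0.053) and no variance shrinkage (0.0501). Smpd1 (chr7:105554360-105558389), acid sphingomyelinase, which makes ceramide from sphingomyelin, was at 17.5, 16.6 and 15.3 FPKM with DMSO and at 14.0, 13.4 and 14.4 FPKM with DASA-58. Its DASA-58 libraries were all below its DMSO libraries, with a log2 fold change of −0.22 and an SE of 0.053 (limma adjusted p = 0.035). The call of Smpd1 was kept without DMSO replicate 3 and lost without any 1 of the other 5 libraries (limma adjusted p from 0.066 to 0.10), and also after quantile normalization, median centring, a trimmed mean of log ratios, no filter, no trend, no variance shrinkage and the replicate block (up to 0.13).

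Ppt1, the thioesterase that removes palmitate from proteins, was at 25.1, 24.9 and 24.5 FPKM with DMSO and at 27.0, 26.6 and 27.4 FPKM with DASA-58. Its log2 fold change of 0.11 with an SE of 0.030 (limma adjusted p = 0.048) was lost without any 1 of the 6 libraries (limma adjusted p from 0.084 to 0.16), and also with no filter, no trend, equal library totals and the replicate block. The gene shares 129 exonic bases with the opposite-strand gene Cap1, at a mean of 219 FPKM, and without strand their fragments cannot be told apart there. Pla2g15, the lysosomal phospholipase A2, and Gm2a, the activator that presents GM2 to hexosaminidase A, had log2 fold changes of 0.13 and 0.10 with no overlap between the groups (limma adjusted p = 0.12 and 0.13).

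**Figure D3:**
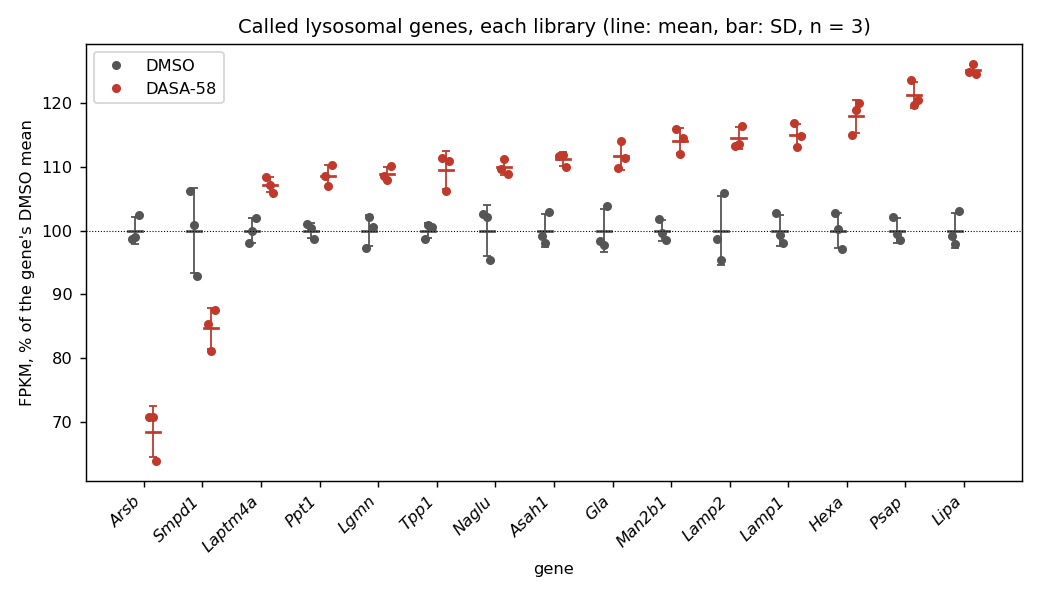
FPKM of the 15 called lysosomal genes in each library, as a percentage of the gene's DMSO mean, with DMSO in grey and DASA-58 in red (points: libraries, lines: means, bars: SD, n = 3). The DASA-58 points of Arsb and Smpd1 lie below their DMSO points and those of the other 13 genes above, up to a mean of 125% for Lipa.

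Of the proteases and the phosphatase, Lgmn and Tpp1 were called higher and Acp2 was not called. Lgmn (chr12:102394084-102439813), legumain, which cuts after asparagine, was at 405, 426 and 419 FPKM with DMSO and at 452, 449.8 and 459 FPKM with DASA-58. The groups did not overlap, with a log2 fold change of 0.12 and an SE of 0.026 (limma adjusted p = 0.025), a call that was kept without DMSO replicate 2 or 3 and lost without any 1 of the other 4 libraries (limma adjusted p from 0.069 to 0.096), and also with no filter, no trend and no variance shrinkage. Tpp1, tripeptidyl peptidase 1, was at 55.4, 56.6 and 56.4 FPKM with DMSO and at 62.5, 59.6 and 62.3 FPKM with DASA-58. It rose by a log2 fold change of 0.13 with an SE of 0.030 (limma adjusted p = 0.033), a call that was kept only without DASA-58 replicate 2 among the 6 libraries left out in turn (limma adjusted p up to 0.11), and was also lost with no filter, no trend, no variance shrinkage, equal library totals and the replicate block. Tpp1 and Smpd1 lie 186422 bases apart on chromosome 7 and were called in opposite directions. Acp2, lysosomal acid phosphatase, was at 41.3 ± 0.948 and 43.7 ± 0.287 FPKM without overlap (log2 fold change 0.08, limma adjusted p = 0.13), and 652 of its exonic bases overlap the opposite-strand gene Ddb2, at a mean of 2.60 FPKM.

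More of the abundant genes were called. The mean level over the 6 libraries ran from 3.78 FPKM (Arsb) to 2328 FPKM (Psap). Among the 10 genes at 100 FPKM or more, a limit set after the values were seen, 7 were called higher (70.0%), and 16.2% of the 505 genes tested at such levels were called higher. Among the 26 genes below it, 6 were called higher (23.1%), against 3.66% of 10460 genes. The 3 abundant genes that were not called were Cd63, Laptm5 and Gusb. The summed level of the 36 genes was 5469.5, 5401 and 5371 FPKM in the DMSO libraries and 6283, 6177 and 6204 FPKM in the DASA-58 libraries, so that the groups stood apart. Psap made up 38.6% to 39.3% of this sum with DMSO and 40.8% to 41.4% with DASA-58. Without Psap the sum was 3298 to 3320.1 FPKM with DMSO and 3659 to 3682 FPKM with DASA-58.

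**Figure D4:**
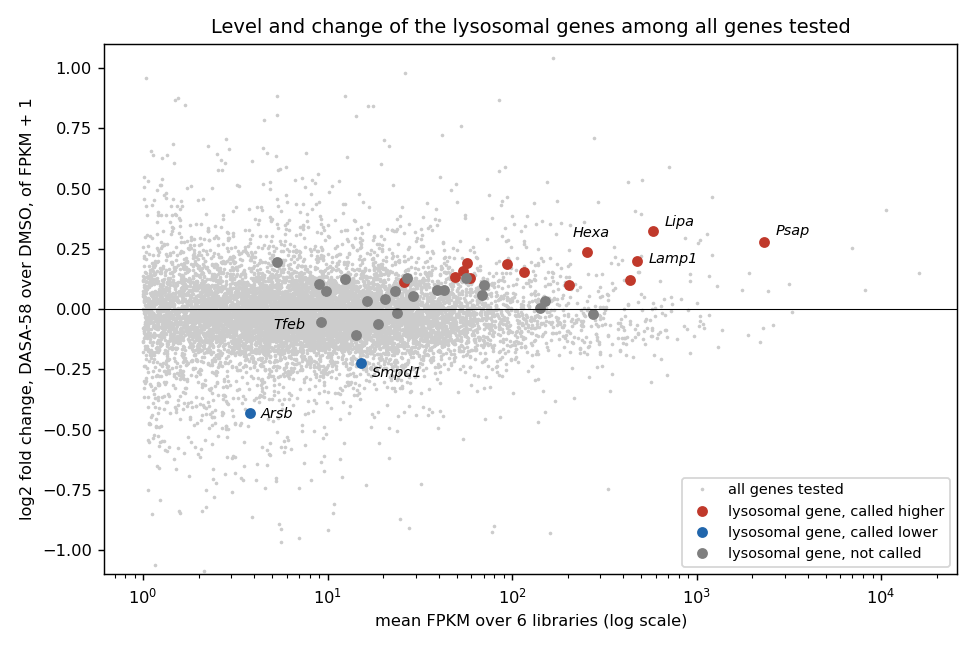
Log2 fold change of FPKM + 1, DASA-58 over DMSO, against the mean FPKM over the 6 libraries (log axis) for the 10965 genes tested (light dots) and the 36 lysosomal genes (red called higher, blue called lower, grey not called). The axis ends at 1.1 in both directions, which leaves out 3 genes, and the red points sit to the right, where levels are high, with Psap the farthest, at 2328 FPKM.

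Genes with an E-box were found among the called and the uncalled genes. Of the 9 genes with TCACGTG, 4 were called higher and 5 were not called. Of the 25 genes without it, 8 were called higher, 2 lower and 15 not called. Among all 36 genes 36.1% were called higher, and among all genes tested 4.24% were called higher and 7.28% lower. Lipa, Psap, Hexa and Man2b1, the genes with the smallest p apart from Arsb and Lamp1, held no match in their windows. No test was made of this split.

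Other lysosomal genes were taken from lists of hydrolases and membrane proteins. Of 23 other hydrolases and soluble proteins tested, 7 were called higher and 16 were not called, where 4.24% of all genes tested were called higher. Creg1, a secreted and lysosomal glycoprotein, went from 246 ± 2.83 to 336 ± 4.74 FPKM, a log2 fold change of 0.45 (limma adjusted p = 6.6e-05). Smpdl3a, an acid phosphodiesterase related to Smpd1, went the other way from Smpd1, from 180.2 ± 4.63 to 229.6 ± 4.47 FPKM (log2 fold change 0.35, limma adjusted p = 4.8e-04). Hpse, heparanase, which cuts heparan sulfate chains, went from 31.3 ± 0.703 to 40.1 ± 0.541 FPKM (log2 fold change 0.35, limma adjusted p = 6.3e-04). These 3 calls held under all 18 alternatives.

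Of 25 other membrane proteins and transporters tested, 7 were called higher and 2, Tpcn1 and Mfsd12, were called lower. Slc11a1, the metal transporter NRAMP1 of phagosomes, went from 111 ± 0.954 to 151 ± 1.74 FPKM, a log2 fold change of 0.44 (limma adjusted p = 6.6e-05) that held under all 18 alternatives. Mfsd1, a transporter, and Mcoln2, a relative of Mcoln1, had log2 fold changes of 0.14 and 0.20 (limma adjusted p = 0.011 for each), and the call of Mfsd1 was lost with no trend in the variance and without DASA-58 replicate 2 (limma adjusted p up to 0.058). Of both lists together, 14 of 48 genes were called higher, 2 lower and 32 not called. Over all genes tested, 4.24% were called higher and 7.28% lower. The change was above 0 for 36 of the 48 (75.0%, against 40.2% of all genes tested), and their median was 0.05. TCACGTG was found in 5 of the 36 of these genes with a promoter (13.9%), against 4.29% of all genes with a promoter.

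Genes that tag hydrolases with mannose 6-phosphate and sort them to lysosomes leaned the other way, with 1 of 10 called higher, 4 lower and a median log2 fold change of −0.11. Among all genes tested, 4.24% were called higher and 7.28% lower. The change was above 0 for 30.0% of the sorting genes and for 40.2% of all genes tested, so the share of downward changes alone differed little. Sort1, sortilin, which carries prosaposin and other proteins from the Golgi, had the largest change, from 3.51 ± 0.174 to 5.47 ± 0.358 FPKM (log2 fold change 0.52, limma adjusted p = 0.0017), and its call held under the 17 alternatives in which it was tested. The 2 mannose 6-phosphate receptors were lower. Igf2r, the large receptor, went from 34.2 ± 1.43 to 29.5 ± 0.503 FPKM (log2 fold change −0.21, limma adjusted p = 0.013), a call lost with no variance shrinkage and without DASA-58 replicate 3 (limma adjusted p up to 0.068). M6pr, the small receptor, went from 197 ± 2.48 to 182 ± 1.49 FPKM (log2 fold change −0.11, limma adjusted p = 0.023), and its call was lost without any 1 library except DMSO replicate 2 and with median centring, no trend, the replicate block and a trimmed mean of log ratios (limma adjusted p up to 0.095). The other 2 lower genes were Gnptab, the phosphotransferase that makes the tag, and Gga2, an adaptor of the sorting coat.

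Among 18 genes for the MiT factors and their control at the lysosome, limma called 0, with 4 at an unadjusted p under 0.05 (Rragc, Lamtor4, Rptor and Ppp3ca) and a median log2 fold change of 0.05. With voom weights on recovered fragments 1 was called higher and 1 lower. Mitf was at 12.2 and 11.5 FPKM and Tfec at 14.4 and 15.1 FPKM with DMSO and DASA-58. Among 17 autophagy genes tested, Sqstm1, the cargo receptor p62, was called higher, from 352 ± 4.88 to 401 ± 7.19 FPKM (log2 fold change 0.19, limma adjusted p = 0.0036), and the other 16 were not called, with a median of 0.02 for the list. Over all genes tested, 4.24% were called higher and 7.28% lower.

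**Figure D5:**
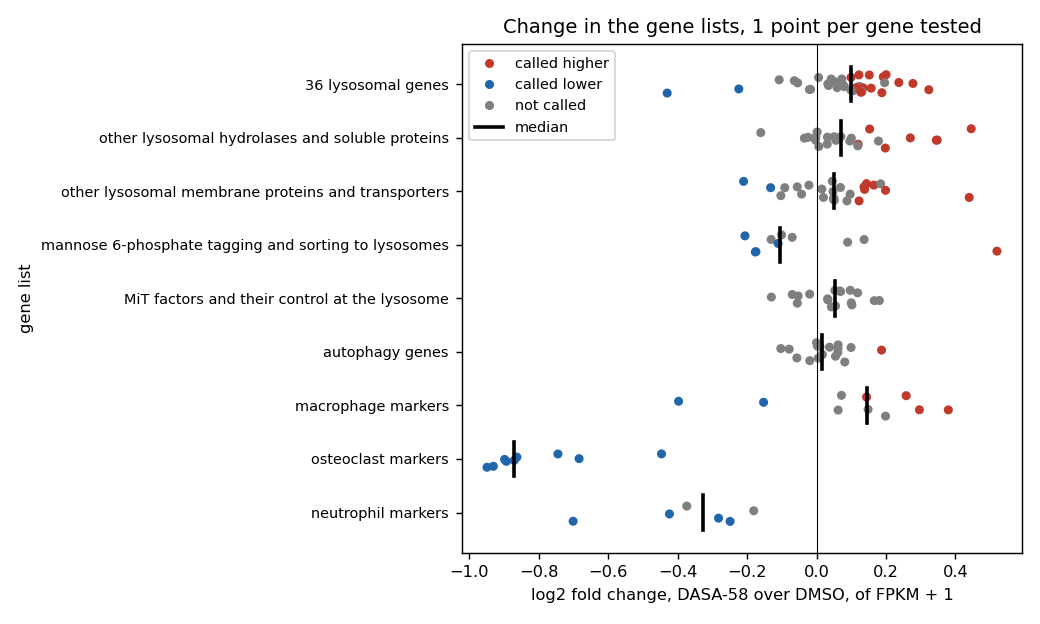
Log2 fold change of FPKM + 1, DASA-58 over DMSO, of every gene tested in the 36 lysosomal genes, the 5 related lists and 3 marker lists (1 point per gene, red called higher, blue called lower, grey not called, black line: median). The medians of the lysosomal lists lie just above 0, at 0.10 for the 36 genes, that of the sorting genes lies below 0 and that of the osteoclast markers near −0.87.

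Markers of cell types changed as well, downward for those of osteoclasts and neutrophils and in both directions for those of macrophages. Over all genes tested, 4.24% were called higher and 7.28% lower. All 9 osteoclast markers tested were lower, with a median log2 fold change of −0.87 and a summed level of 778 to 833 FPKM with DMSO and 449 to 467 FPKM with DASA-58, and Calcr was below 1 FPKM. Ctsk, cathepsin K, went from 209.9 ± 6.26 to 109.6 ± 3.28 FPKM (log2 fold change −0.93, limma adjusted p = 8.3e-06) and Acp5, the phosphatase TRAP, from 105 ± 3.83 to 55.6 ± 0.320 FPKM (log2 fold change −0.90). Of 10 macrophage markers, 4 were higher (Adgre1, Mrc1, Mertk and Cd68) and 2 were lower (Cd14 and Cx3cr1), and their summed level, mostly Lyz2, was 16489.5 to 17327 FPKM with DMSO and 17431 to 19744 FPKM with DASA-58. Cd68 is also among the other lysosomal membrane proteins above. Adgre1 went from 326 ± 7.70 to 390.2 ± 0.774 FPKM (log2 fold change 0.26, limma adjusted p = 9.8e-04), and Csf1r was at 322 ± 2.92 and 336 ± 10.3 FPKM (log2 fold change 0.06, limma adjusted p = 0.20).

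Of 6 neutrophil markers tested, 4 were lower. The list summed to 167 to 171 FPKM with DMSO and 130.4 to 137 FPKM with DASA-58. Ly6g, the defining marker, was at 0 in all DASA-58 libraries and at 0.0382 FPKM on average with DMSO. It had at most 1 fragment in any library, too few to show a difference between the groups. The listed markers of T and NK cells, B cells, red cells and mast cells summed to at most 7.73 FPKM per list and library, mostly Cd4 for the T and NK cells, and the 7 stromal markers to 34.4 to 36.5 FPKM, mostly Col1a1, with none of the 3 tested called. The part of these cell types in the change of the 36 genes was not tested. The recovered depth of the libraries lay between 18191560 and 18968556 fragments, so that depth differed little between the groups, and no library stood apart from its group.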

How the data were processed

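The authors deposited 1 table of FPKM values (fragments scaled by gene length and library depth) for 23504 genes in the 6 libraries, and 0 of its value columns were left unmapped. The submitters' processing notes name HISAT2 2.1.0, HTSeq 0.6.0 and the build mm8, while the annotation, the gene lengths and the use of strand are not given in the sources used here. With gene lengths of GENCODE mouse release 21 (GRCm38), 90.8% of the genes gave whole fragments in every library within a tolerance of 0.01, and the recovered depth was 18191560 to 18968556 fragments. A count of 0 allows 3 fragments, or 0.158 to 0.165 FPKM on a gene of 1000 bases, for counting error only. Coordinates are those of GENCODE and promoters those of RefSeq, both on GRCm38. Of the identifiers, 23455 had a symbol and 49 had none.

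DASA-58 was set against DMSO on log2(FPKM + 1) in limma 3.58.1 (R 4.3.3), by lmFit and by eBayes with a variance trend, for the 10965 genes whose mean reached 1 FPKM, and p was adjusted by Benjamini-Hochberg. The study's methods give Student's test for 2 groups, of which this is the form that shares the variance across genes. All 36 genes are named, and of each related list the 3 called genes with the smallest p. Genes named beyond this rule, beside a count, were chosen after their values were seen. The genes and lists were chosen with earlier results of these data known. Alternatives were pseudocounts of 0.1 and 5, no filter and a minimum of 5 FPKM, 4 scalings (quantile normalization, equal library totals, median centring, and trimmed means of log ratios), fits that lacked the trend or the variance shrinkage, voom weights on recovered fragments, a replicate block, and 6 fits that each leave out 1 library, which makes 18. The main fit was tested on simulated data, with changes larger than those of the genes called higher among the 36. That test does not bear on changes of their size. Tables used Python 3.11.15 with pandas 2.3.3 and numpy 2.4.6, and plots used matplotlib 3.10.9.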

Additional observations from a re-analysis of the deposited data

How the results depend on the processing

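No call of the 15 called genes changed sign under the 18 alternatives, and 4 of the 15 (Hexa, Man2b1, Lipa and Arsb) kept their call wherever they were tested. The count of 13 genes called higher was 5 with no filter on low values, 5 with no trend in the variance and 6 with no variance shrinkage, and 5 to 10 when 1 library was left out. Voom weights gave 16. The count of 2 called lower was 1 with no filter, a minimum of 5 FPKM, quantile normalization, median centring, a trimmed mean of log ratios and no trend, and 1 to 2 when 1 library was left out. Of the other lysosomal genes, the 14 called higher became 8, 7 and 8 with no filter, no trend and no shrinkage and 8 to 9 with 1 library left out, and the 2 called lower became 0 with no filter or no shrinkage, 1 with quantile normalization, median centring, a trimmed mean or no trend, and 0 to 2 with 1 library left out. The median log2 fold change of 0.10 was 0.085 with a pseudocount of 5, 0.082 with equal totals, 0.13 with median centring and 0.13 with a trimmed mean, and 0.087 to 0.11 with 1 library left out. Over all genes, 798 lower and 465 higher calls became 372 and 257 with no filter, 515 and 341 with no trend, 314 and 227 with no shrinkage, 1296 and 713 with voom weights, 504 and 597 with median centring, 508 and 596 with a trimmed mean, and 387 to 603 and 272 to 375 with 1 library left out. Fewer libraries or more genes tested account for part of the lower counts by construction, and otherwise the cause was not tested. With the replicate block, 9 genes were called higher and 1 lower, 10 and 1 of the other lysosomal genes, and 378 and 579 of all genes. The correlations of same-numbered libraries' deviations were −0.015, 0.016 and −0.016, so no pairing by number was visible in the values. Whether same-numbered libraries shared a preparation cannot be settled this way, and the labels do not say. With 3 libraries a group, an uncalled change among these small ones is not shown to be absent.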
